A study of Mus musculus with 6 samples.

Results

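Cluster 5 was one of 13 Leiden clusters of single cells in sections through the mouse embryonic outflow tract (OFT), imaged by MERFISH, which counts individual RNA molecules in place for a fixed panel of genes. Its members were the cells inside the hand-drawn OFT outline that carried the deposited cluster number 5, in total 643 of 6078 OFT cells (10.6%) and of 364721 cells in all. Embryos were collected at E11.5, and a panel of 140 genes was read in 10 µm transverse sections. The controls were 3 Ankrd11-nchet embryos (Ankrd11 fl/WT; Wnt1Cre2; RosaYFP STOP/STOP) and the knockouts 3 Ankrd11-ncko embryos (Ankrd11 fl/fl; Wnt1Cre2; RosaYFP STOP/STOP). Both genotypes carried the Cre transgene and the YFP reporter, so the controls were heterozygous for the deletion in the crest and not wild type. Wnt1Cre2 recombines in premigratory neural crest and its derivatives. The embryo was the replicate, and the cells of a section were not.

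Ankrd11 encodes a chromatin regulator. At E11.5 the OFT is a single muscular tube that is beginning to divide into the aorta and the pulmonary artery. Cardiac neural crest cells (CNCCs) enter it as mesenchyme, while its myocardial wall derives from the second heart field and not from the crest, so cardiomyocytes are not the cells in which Wnt1Cre2 acts. Myh7 and Bmp7 are the marker genes of cluster 5, and Myh7 also marks cluster 6. Myh7 encodes a myosin heavy chain of embryonic heart and slow muscle and marks cardiomyocytes. Bmp7 is a secreted BMP ligand made by embryonic myocardium, which signals to neighbouring cushion and crest cells. The files analysed here held for each cell the number of decoded transcripts, the number of panel genes detected, the embryo, the genotype, the outline and the cluster, with no count for any single gene. The cardiomyocyte identity of cluster 5 could therefore not be checked against Myh7 or Bmp7, and the cells are called by their cluster number. For the same reason no gene can be called higher or lower in them.

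The 6 sections held between 43458 and 82198 cells, of which 814 to 1292 lay inside the OFT outline, and the median OFT cell held 389 to 745 transcripts. No cell identifier occurred in 2 embryos. The leading 7 digits of the identifiers were shared by control 3 and ncko 3 alone, and the other 4 embryos each had their own. Controls 1 and 2 and ncko 2 shared the stem of their sample titles, whose meaning is not given in the sources used here. By the methods 4 embryos, 2 of each genotype, were imaged at one facility and the other 2 elsewhere, and which ones is not given in the sources used here.

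Cluster 5 was present in every OFT. It had 123, 129 and 89 cells in controls 1, 2 and 3, and 113, 121 and 68 cells in ncko 1, 2 and 3. These cells made up 13.5% (95% Wilson interval 11.46 to 15.9), 13.1% (11.1 to 15.4) and 8.44% (6.91 to 10.3) of the control OFT cells, and 8.75% (7.33 to 10.4), 11.8% (9.97 to 13.9) and 8.35% (6.64 to 10.5) of the ncko OFT cells. Control 3 thus sat with ncko 1 and ncko 3, and ncko 2 sat nearer to controls 1 and 2. The genotypes overlapped. The mean share was 11.7% ± 2.82 (SD, n = 3) in controls and 9.63% ± 1.89 in ncko embryos, a difference of -2.06 percentage points (exact 2-sided permutation test, p = 0.3). In the pair with shared leading identifier digits the shares were 8.44% and 8.35%, and among the embryos with a shared title stem they were 13.5% and 13.1% in controls against 11.8% in ncko 2. The number of cells averaged 114 ± 21.6 in control and 101 ± 28.6 in ncko outlines (exact permutation p = 0.5), and without ncko 3 the difference of -13 cells became one of 3.33 cells more in ncko embryos. Counting intervals cover counting error only, and each embryo gave 1 section, whose level along the OFT also sets the cells it holds. With 3 embryos against 3 the smallest possible exact p is 0.1. In none of 12 genotype comparisons of cluster 5 did the genotypes separate without overlap, and every Benjamini-Hochberg adjusted p over the 12 was 1. Of 2 further comparisons, added after the data were seen and described with the genes at similar transcripts, 1 separated without overlap (exact permutation p = 0.1).

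Because every cell type enters the share of all OFT cells, cluster 5 was also set against narrower totals. Clusters 2, 3 and 7 were identified by the study as CNCCs, cells of the lineage in which Ankrd11 was deleted. By the study, these clusters may also hold a few mesenchymal cells from the second heart field. Among the OFT cells outside clusters 2, 3 and 7, cluster 5 made up 20.0%, 19.2% and 12.99% in controls and 13.6%, 20.8% and 18.8% in ncko embryos. These totals included cluster 10, with medians of 8 to 21 transcripts, and the small clusters 11 to 13, found mostly in ncko embryos. In ncko 1 the total held 131 cells of cluster 8 and 71 of cluster 11, whose part in the share was not tested. With the crest clusters set aside, ncko 2 and ncko 3 lay beside controls 1 and 2, while control 3 was lowest. The means were 17.4% ± 3.84 and 17.7% ± 3.74 (n = 3 each, exact permutation p = 0.8). Between control 3 and ncko 3, which shared identifier digits, the difference was 5.79 points.

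Of the cells of the Myh7 clusters 5 and 6 together, cluster 5 made up 71.5%, 53.3% and 53.3% in controls and 55.9%, 60.8% and 40.5% in ncko embryos. It was the larger of the pair in every embryo but ncko 3, which had 68 cells of cluster 5 and 100 of cluster 6. Control 1 stood at the other end, with 123 cells against 49. The mean share was 59.4% ± 10.5 in controls and 52.4% ± 10.6 in ncko embryos (exact permutation p = 0.6).

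**Figure D1:**
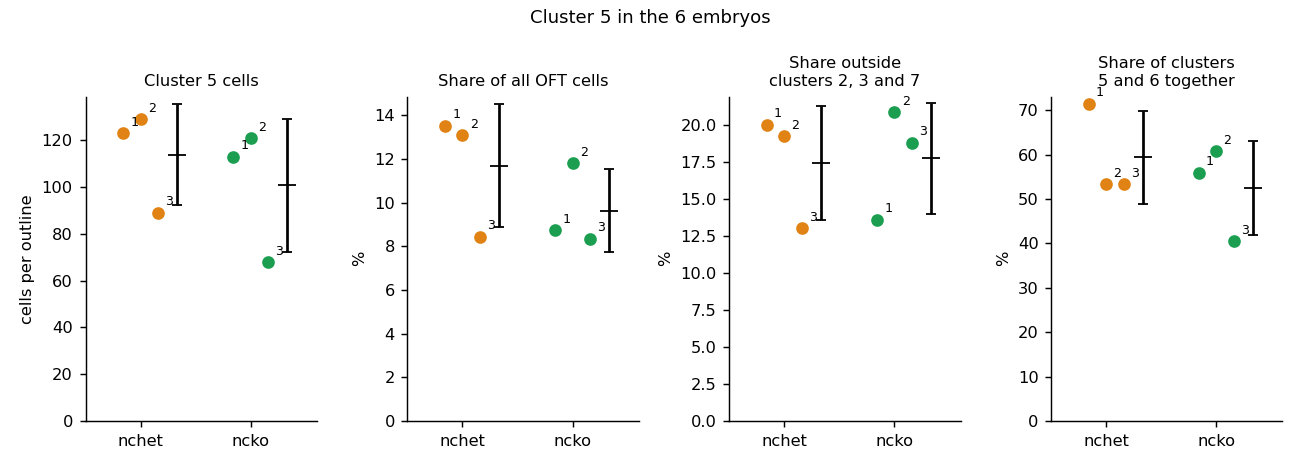
Number of cluster 5 cells per OFT outline and their share (%) of all OFT cells, of the OFT cells outside clusters 2, 3 and 7, and of clusters 5 and 6 together. Each point is 1 embryo with its number beside it, orange Ankrd11-nchet and green Ankrd11-ncko, and bars are the mean and SD over 3 embryos. The genotypes overlap in all 4 panels, and control 3 and ncko 3 have the fewest cluster 5 cells, 89 and 68.

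Cells of cluster 5 carried few transcripts. The median was 282, 448 and 308 transcripts per cell in controls 1, 2 and 3, and 320, 369 and 345.5 in ncko 1, 2 and 3. For cluster 6 the medians were 531, 896 and 814.5 in controls and 847, 823.5 and 941.5 in ncko embryos. In all 6 embryos cluster 5 was thus below the other Myh7 cluster, with 0.531, 0.500 and 0.378 of its median in controls and 0.378, 0.448 and 0.367 in ncko embryos. Among clusters 1 to 10 it had the third lowest median in each of the 6 embryos, above clusters 7 and 10. It also lay below the median of the cells outside the OFT outline in 6 of 6 embryos, at 0.658 to 0.907 of it. The clusters had been drawn from the transcript counts of the same cells, so these differences are descriptions and were not tested. Total transcripts depend on cell size, on how the outline of each cell was drawn and on the genes of the panel, and the part of each of these was not tested.

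**Figure D2:**
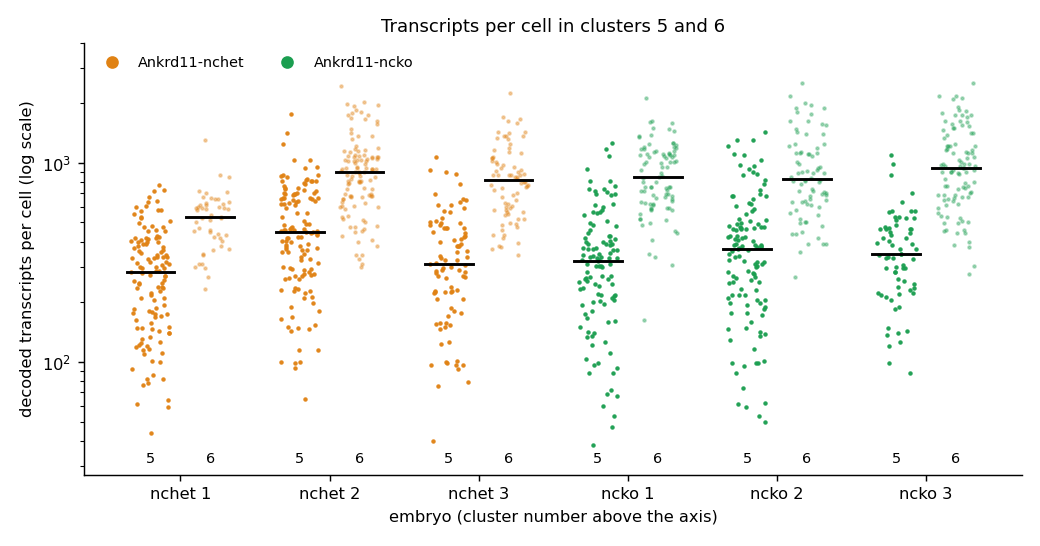
Decoded transcripts per cell on a log scale in cluster 5 (left of each pair) and cluster 6 (right of each pair, paler) of every embryo, orange Ankrd11-nchet and green Ankrd11-ncko. Each point is 1 cell and each black line a median; the cluster 5 line is the lower one in all 6 embryos, with cluster 5 medians of 282 to 448 against 531 to 941.5 in cluster 6.

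The genotypes did not separate in depth. The median of cluster 5 averaged 346 ± 89.3 transcripts in controls and 345 ± 24.5 in ncko embryos (n = 3 each, exact permutation p = 1). The control medians spread from 282 to 448 and enclosed all 3 ncko medians. Relative to cluster 6 of the same embryo, the log2 ratio of medians averaged -1.11 ± 0.26 in controls and -1.34 ± 0.16 in ncko embryos, a difference of -0.23 (exact permutation p = 0.2). Controls 1 and 2 had the highest ratios, 0.531 and 0.500, whereas control 3 had 0.378, the value of ncko 1. Relative to all other OFT cells of the same embryo, the log2 ratio averaged -0.82 ± 0.27 and -0.85 ± 0.11 (exact permutation p = 1). Cluster 5 contributed a smaller part of the transcripts of each OFT than of its cells. It held 9.46%, 8.13% and 4.48% of the decoded OFT transcripts in controls and 5.46%, 7.33% and 4.40% in ncko embryos (means 7.36% ± 2.58 and 5.73% ± 1.48, exact permutation p = 0.4).

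Within an embryo, cluster 5 was broad. Its cells ranged from 38 to 1761 transcripts over the 6 embryos, and the upper quartile was 1.99 to 2.51 times the lower one, against 1.48 to 2.00 times in cluster 6. The SD of log2 transcripts over the cells of an embryo was 0.76 to 1.07 in cluster 5 and 0.48 to 0.70 in cluster 6, higher in cluster 5 in each embryo. Shares beyond a fixed limit of transcripts depend on the median of a cluster as well as on its breadth. Of the 643 cells, 147 (22.9%) held under 200 transcripts, against 1 of the 507 cells of cluster 6. By embryo, 34.1%, 13.2% and 24.7% of cluster 5 cells were this shallow in controls and 24.8%, 23.1% and 14.7% in ncko embryos (means 24.0% ± 10.5 and 20.9% ± 5.41, exact permutation p = 0.8). Cells with 800 transcripts or more were rare, 44 in all (6.84%), against 263 in cluster 6 (51.9%). They made up 13.2% of cluster 5 in control 2 and 11.6% in ncko 2, 4.41% to 5.31% in control 3, ncko 1 and ncko 3, and 0 of 123 cells in control 1, which allows a share of up to 2.44%. Control 2 and ncko 2 had the highest medians of cluster 5 in their genotype. The mean shares of such cells were 5.89% ± 6.70 and 7.10% ± 3.90 (exact permutation p = 0.9).

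Among the OFT cells, how often a cell belonged to cluster 5 depended on its number of transcripts. Among OFT cells with under 200 transcripts, cluster 5 made up 12.3% to 28.6% over the 6 embryos (mean 21.2%), and among those with 200 to under 400 it made up 16.4% to 32.7% (mean 22.6%). The share was 5.45% to 16.3% at 400 to under 800 transcripts (mean 8.92%) and 0% to 4.18% at 800 or more (mean 2.02%). Cluster 6 ran the opposite way, from means of 0.0887% in the lowest class and 3.40% in the next to 8.88% and 13.4% in the upper classes. The pair was thus similarly frequent on average in the class of 400 to under 800 transcripts. A lower limit of 200 transcripts per cell would remove 147 cells of cluster 5 and 1 of cluster 6. With cells under 200 transcripts left out of every cluster, the genotype difference in the share of OFT cells kept its direction.

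**Figure D3:**
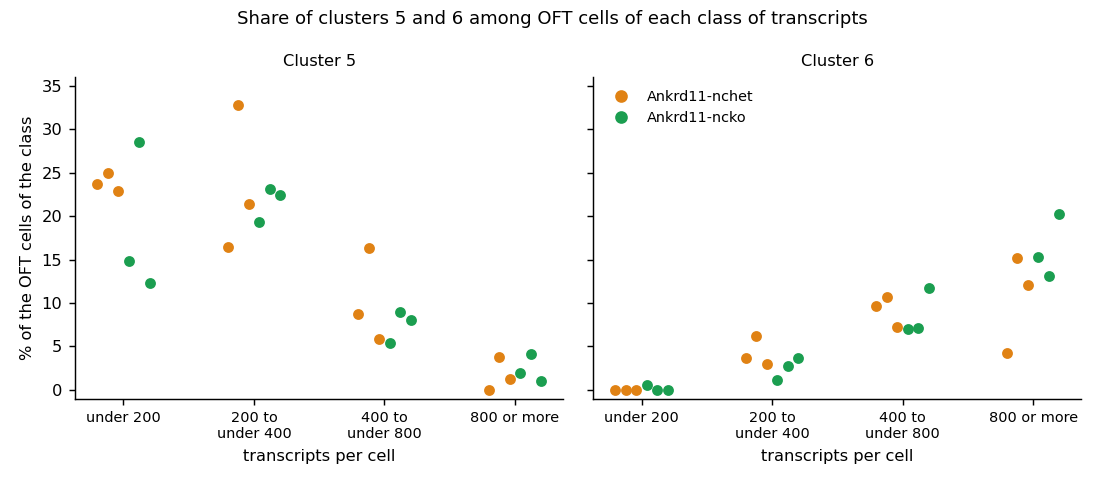
Share (%) of cluster 5 (left) and cluster 6 (right) among the OFT cells of each class of transcripts per cell, with 1 point per embryo, orange Ankrd11-nchet and green Ankrd11-ncko. Cluster 5 falls from 12.3% to 28.6% in the lowest class to at most 4.18% in the highest, and cluster 6 rises from at most 0.532% to between 4.29% and 20.2%.

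The number of panel genes detected was low as well. The median cell of cluster 5 showed 62, 70 and 65 of the 140 genes in controls and 64, 63 and 67.5 in ncko embryos, against 90 to 99.5 in cluster 6. The genotype means were 65.7 ± 4.04 and 64.8 ± 2.36 genes (exact permutation p = 0.8). Single cells ranged from 19 to 107 genes. More transcripts show more genes, and over the cells of 1 embryo the number of genes followed log2 transcripts closely in cluster 5 (Pearson r 0.93 to 0.95, a description, since both are read from the same molecules).

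Cells were therefore compared at similar numbers of transcripts. Among cells with 400 to under 800 transcripts, those of cluster 5 showed on average 79.8, 76.9 and 77.1 genes in controls and 75.9, 75.5 and 75.1 in ncko embryos. In the same class, cluster 6 showed 92.6, 87.4 and 91.0 genes in controls and 89.6, 84.9 and 88.7 in ncko embryos. Cluster 5 was lower in 6 of 6 embryos, by 12.3 ± 1.89 genes (SD, n = 6 embryos). Within this class the cells of cluster 5 also held fewer transcripts, on average 504 to 575 against 562 to 623 in cluster 6. In bins of only 50 transcripts, an alternative added after the data were seen, cluster 5 still showed fewer genes in 6 of 6 embryos, by 9.38 ± 1.51.

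Fewer genes at a given number of transcripts means that more of the molecules of a cell belonged to the same genes. Cluster 5 stood lowest in this respect among clusters 1 to 9. In bins of 50 transcripts it showed fewer genes than each of the other 8 in all 6 embryos. The mean differences were smallest against cluster 4 (6.88 ± 1.40 genes fewer) and cluster 7 (7.11 ± 2.07), the only one of these with a lower median number of transcripts. They were largest against cluster 1, at 19.2 ± 1.62 genes fewer, and lay between 13.5 and 15.2 for clusters 2, 3, 8 and 9. Some of the small clusters were lower still. In ncko 2, cluster 13 had 45.7 genes at 200 to under 400 transcripts and 51.1 at 400 to under 800. Cluster 12, with at most 4 cells in any class of an embryo, had 50 and 73.5 genes in those classes in ncko 2 and 54.7 and 71.3 in ncko 3, below cluster 5. At 400 to under 800 transcripts its single cell had 77 genes in control 1, below the cluster 5 mean, and 85 in ncko 1, above it. Which genes made up the difference cannot be read from these files.

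**Figure D4:**
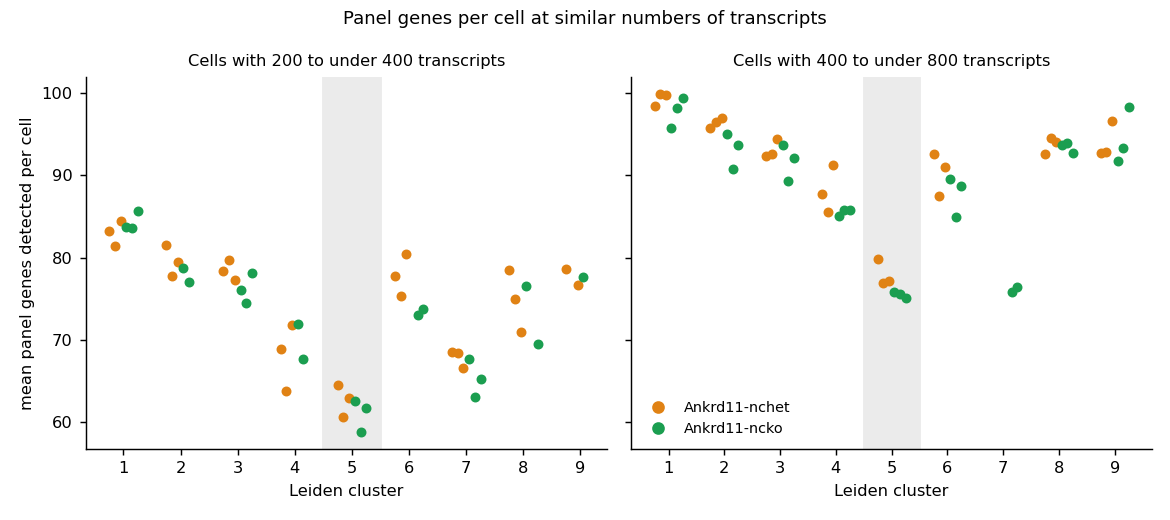
Mean number of the 140 panel genes detected per cell in clusters 1 to 9, for cells with 200 to under 400 transcripts (left) and 400 to under 800 (right), with 1 point per embryo and cluster of at least 5 such cells, orange Ankrd11-nchet and green Ankrd11-ncko. Cluster 5, shaded, has 58.8 to 64.5 genes on the left and 75.1 to 79.8 on the right. On the left the ranges of cluster 4 (63.8 to 71.9) and cluster 7 (63.1 to 68.6) overlap that of cluster 5. Cluster 7 lies close to it on the right, where only 2 embryos give a point.

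The difference between clusters 5 and 6 at similar transcripts was -13.5 ± 1.92 genes in controls and -11.6 ± 1.79 in ncko embryos, averaged over the classes of transcripts (n = 3 each, exact permutation p = 0.4). The embryos entered with different classes, and in the class of 400 to under 800, which all 6 shared, the differences were -12.4 and -12.2 genes (exact permutation p = 0.8). Cluster 5 itself was compared between genotypes in 2 of these classes, a test added after the data were seen. At 400 to under 800 transcripts it showed 77.9 ± 1.64 genes in controls and 75.5 ± 0.37 in ncko embryos, a difference of -2.42 genes without overlap (exact permutation p = 0.1, adjusted over 2 tests 0.2). The lowest control, at 76.9 genes, was 1 gene above the highest ncko embryo, at 75.9. Within the shared title stem the values were 79.8 and 76.9 against 75.5, and within the pair with shared identifier digits 77.1 against 75.1. The mean transcripts of these cells were 520, 575 and 529 in controls and 557, 527 and 504 in ncko embryos, and their part in the difference was not tested. At 200 to under 400 transcripts the means were 62.7 ± 1.93 and 61.0 ± 1.98 genes, and the genotypes overlapped (exact permutation p = 0.4). The separation at 400 to under 800 transcripts was not particular to cluster 5. In that class cluster 2 showed 95.75, 96.5 and 96.9 genes in controls and 95.1, 90.8 and 93.7 in ncko embryos, also without overlap. Clusters 1, 3, 4, 6, 8 and 9 overlapped there, but lower values in ncko embryos were not limited to clusters 5 and 2. Cluster 6 showed 92.6, 87.4 and 91.0 genes in controls and 89.6, 84.9 and 88.7 in ncko embryos. For cluster 4 the values were 87.8, 85.5 and 91.3 against 85.1, 85.8 and 85.8. Cluster 9 was not lower, with 92.8, 92.9 and 96.6 against 91.7, 93.4 and 98.3. These other clusters were not tested between genotypes.

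Positions of cells were not among the values analysed here, but the identifiers carried a block number, and the OFT cells of a section fell in 3 or 4 of its 56 to 104 blocks. Blocks are therefore read as coarse neighbourhoods, without knowledge of their place in the OFT. Cluster 5 was uneven over them. Of 16 blocks with at least 30 OFT cells, 13 held cluster 5, at 0.546% to 40.5% of the OFT cells, and 3 held none.

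The 3 blocks without cluster 5 held no cell of cluster 6 either, and cluster 1 made up 44.2% to 66.2% of their OFT cells. They were a block of control 1 (0 of 31 OFT cells, which allows up to 9.68%), a block of control 2 (0 of 77, up to 3.90%) and a block of ncko 2 (0 of 181, up to 1.66%). Clusters 2 and 3 had 0 cells in these blocks of controls 1 and 2, and 2 and 5 cells in that of ncko 2. The absence was thus not particular to the Myh7 clusters. A block of control 3 with 165 cells of cluster 1 had 2 cells of cluster 5 among 366. Another block of that embryo held 15 cells of cluster 5 and 14 of cluster 6 among 37 OFT cells, with none of clusters 1 to 4. In ncko 1, cluster 5 made up 11.6% of the block with 5.01% of cluster 1, and 4.53% of the block with 27.6% of cluster 1. The 4 blocks of this size with 44.2% or more of cluster 1 thus held 2 cells of cluster 5 and 4 of cluster 6 among 655 OFT cells. Cluster 5 was not missing wherever cluster 1 was the most numerous, since a block of control 1 with 24.6% of cluster 1 held 99 of the 123 cluster 5 cells of that embryo.

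**Figure D5:**
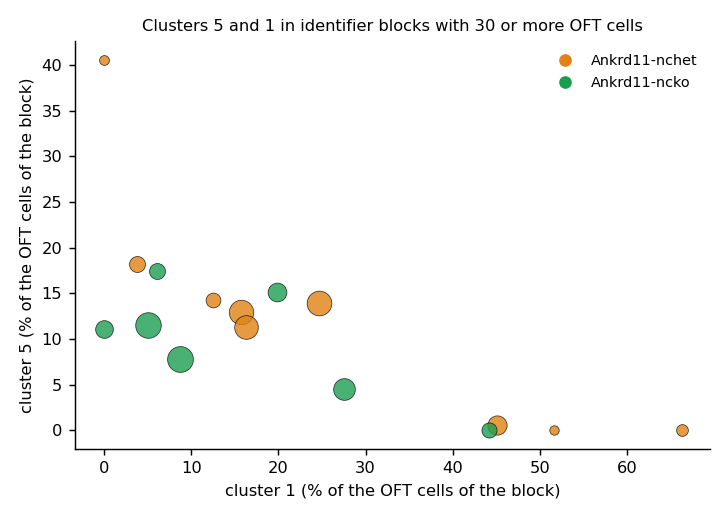
Share of cluster 5 against share of cluster 1 (both % of the OFT cells of the block) in the 16 identifier blocks with at least 30 OFT cells, with larger points for blocks with more OFT cells, orange Ankrd11-nchet and green Ankrd11-ncko. The 3 blocks without cluster 5 hold 44.2% to 66.2% of cluster 1, and the block with 40.5% of cluster 5 holds none.

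The 2 Myh7 clusters were not divided alike over the blocks. In control 1, that block held 99 cells of cluster 5 and 19 of cluster 6, and another 24 and 30. Likewise ncko 2 had 52 cells of cluster 5 and 13 of cluster 6 in one block, and 32 and 47 in another. Cluster 5 cells were also unevenly placed in the order of the identifiers. Of the OFT cells that came next after a cluster 5 cell, 19.0%, 29.6% and 18.0% in controls and 18.6%, 33.3% and 9.30% in ncko embryos were cluster 5 again. Each value was above the share of cluster 5 in that OFT, by less than 1 percentage point in ncko 3 (4 of 43 cells, 9.30% against 8.35%). The unevenness over blocks also enters these values, and its part was not tested. Cells of other clusters were followed by cluster 5 as often in some embryos. After a cluster 6 cell, 21.9% and 31.6% of the next OFT cells in controls 1 and 3, 17 of 68 in control 2, and 19.5%, 11.8% and 9.20% in ncko embryos were cluster 5, more than after a cluster 5 cell in controls 1 and 3 and ncko 1. In ncko 2 the share was higher after cluster 9 (7 of 18, 38.9%), and in ncko 3 after cluster 1 (5 of 37, 13.5%). These are descriptions within single sections, and no genotype test was made on them.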

How the data were processed

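Sections of 3 Ankrd11-nchet and 3 Ankrd11-ncko OFTs were imaged on the MERSCOPE platform, decoded with MERlin (version 0.1.6) and segmented with Cellpose by the authors. They outlined the OFT by hand in squidpy (1.3.1), then normalized, scaled and reduced the counts to 30 principal components in Seurat (5.0.1, R 4.3.3) and clustered the cells with Leiden, whose resolution was not given in the sources used here. The deposited counts of transcripts and of panel genes per cell are raw and neither normalized nor corrected for cell size. Their median bounds the precision of each cell, and the cells per embryo bound that of each share. Segmentation of a thin section can cut cells or merge neighbours, which changes both counts, and no doublet removal is stated.

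Embryos were assigned to genotype by the labels and numbered in their deposited order. Cells were selected by outline and cluster number, with no further filter. Values were computed per embryo in Python 3.11.15 (pandas 2.3.3, numpy 2.4.6, scipy 1.17.1). Genotypes were compared by the exact 2-sided permutation test over 3 against 3 embryos, with Benjamini-Hochberg adjustment over 12 results, and checked on simulated data. Shares have 95% Wilson intervals, except that the upper limit given for a count of 0 is 3 divided by the total, which is lower than the Wilson limit. Transcript-matched values used classes of 200 to under 400, 400 to under 800 and 800 to under 1600 transcripts. The difference between clusters was the unweighted mean over the classes with at least 5 cells of each cluster. Bins of 50 transcripts ran from 200 to 999 without this minimum, so single cells could enter. Their differences were weighted by the cell numbers of both clusters in the bin. The block number is digits 9 to 13 of the 19-digit identifier. Members and comparisons were chosen with earlier results of these data known. Myh7 and Bmp7 were named as the markers of the cluster, with no value.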

Additional observations from a re-analysis of the deposited data

How the results depend on the processing

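Of 160 alternative values of the 12 genotype comparisons, 136 kept their sign and 24 changed it, and sizes also moved. Of the 72 values obtained by leaving out 1 embryo, 13 changed sign. Leaving out 1 embryo moved the difference (ncko minus control) in the share of OFT cells between -3.69 and -1.14 points, in the number of cells between -25.3 and 3.33, in the share of clusters 5 and 6 between -11.2 and -0.893 points, in the share outside clusters 2, 3 and 7 between -1.88 and 2.40 points, in the median transcripts between -33.2 and 49.8 and in the median genes between -2.67 and 1.33. The log2 ratio to cluster 6 moved between -0.38 and -0.13, that to the other OFT cells between -0.17 and 0.10, the gene gap to cluster 6 between 0.850 and 2.71, the share of transcripts between -3.07 and -0.578 points, the share under 200 transcripts between -8.56 and 1.93 points and that at 800 or more between -1.74 and 4.85 points. The difference in transcripts was 2.57 with means over cells and 7.5 with only the cells whose digit 14 was 1, and the log2 ratio to the other OFT cells was 0.0198 with those cells; the cause was not tested. Between control 3 and ncko 3 alone, the share outside clusters 2, 3 and 7 differed by 5.79 points, the share of OFT cells by -0.0902 points, and 4 of 12 results changed sign: median genes 2.5, median transcripts 37.5, the log2 ratio to the other OFT cells 0.10 and the share at 800 or more -0.0826 points. In the other 4 embryos the share outside clusters 2, 3 and 7 was -2.41 points and the share under 200 transcripts 0.297 points. Within the shared title stem the share of OFT cells differed by -1.52 points, and of the 12 results the median transcripts alone changed sign (4). With the cells of a genotype pooled, the share outside clusters 2, 3 and 7 was -0.287 points. In the class of 400 to under 800 transcripts alone, the gene gap to cluster 6 differed by 0.183 in place of 1.91. Bins of 50 transcripts, the limit of 200 transcripts, the digit and the test of cluster 5 genes between genotypes were chosen after seeing the data. No paired analysis was possible because the labels give the genotypes no shared replicate numbers, and the title stem, whose meaning is not given, and the identifier digits leave ncko 1 without a control; their values are given without a test. With 3 sections a genotype the smallest possible exact p is 0.1, so no genotype difference of any size could have passed a threshold of 0.05.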

Other observations

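The digit of the cell identifier that follows the block number was 1 or 2, and its meaning is not given in the sources used here. Cells of cluster 5 carried a 2 less often than those of cluster 6 in 6 of 6 embryos, at 14.6%, 8.53% and 8.99% in controls and 0.885%, 5.79% and 7.35% in ncko embryos, against 34.7%, 20.4% and 14.1% and 5.62%, 26.9% and 34.0% in cluster 6. Among the other OFT cells the share was 6.81% to 27.6%, above that of cluster 5 in every embryo but ncko 3. The difference was not tested.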
